A study of Homo sapiens with 6 samples.

Results

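The chromosome 19 microRNA cluster, often written C19MC, was measured in Huh7, an established line of human hepatocellular carcinoma cells. Its members were taken as all probes of the deposited table that carry a miRBase mature-microRNA accession from MIMAT0002822 to MIMAT0002869. This range of 48 accessions covers miR-512, miR-498 and miR-515 to miR-527. It gave 47 probes out of 1212 in the table, holding 47 of the 48 accessions. Of these, 43 probes carried 1 accession and 4 carried several. One group of Huh7 cells received 10 mM metformin, a biguanide drug used in diabetes, for 72 h (3 arrays). The other group was kept without metformin (control, 3 arrays). The 1-colour microarrays were hybridised with Hy5-labelled total RNA. The series asked which microRNAs respond to metformin in liver cancer cells. Nothing in the labels tells whether replicates were grown as separate cultures, and the p-values below therefore reflect only the spread among the arrays, which may be technical.

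The cluster is found only in primates and is among the largest groups of microRNA genes in the human genome. It is imprinted, with expression from the paternal allele, and is best known from the placenta, where trophoblast cells express its members strongly and release them in vesicles. Most adult tissues, liver included, are known to keep it silent, but expression has been described in part of hepatocellular carcinomas and in some other tumours. A microRNA guides Argonaute proteins to messenger RNAs mainly through its seed, which is bases 2 to 8 of the mature strand, so members that share a seed are expected to share many targets.

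The RefSeq sequence table (GRCh38.p14) lists 63 mature names for these microRNAs, from 42 genes. They lie on the plus strand at chr19:53666692-53762418, a span of 95.7 kb. The names listed include no miR-527, and only the 5p arm of miR-518f and of miR-522, so these counts may miss members. The 52 distinct sequences listed are 18 to 25 bases long and fall into 32 seeds. Of the 52 sequences, 32 share their seed with another sequence of the cluster. The sequences below show these seed groups and how close the members are to one another, which matters for telling their probes apart. Seeds are in capitals.
hsa-miR-520c-3p: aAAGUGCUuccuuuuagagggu
hsa-miR-520b-3p: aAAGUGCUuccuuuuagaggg
hsa-miR-520a-3p: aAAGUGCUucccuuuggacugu
hsa-miR-519a-3p: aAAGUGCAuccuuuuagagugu
hsa-miR-519d-3p: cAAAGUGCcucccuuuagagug
hsa-miR-512-3p: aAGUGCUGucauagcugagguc
hsa-miR-518b: cAAAGCGCuccccuuuagaggu
hsa-miR-517a-3p and hsa-miR-517b-3p: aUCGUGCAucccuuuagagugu
hsa-miR-517c-3p: aUCGUGCAuccuuuuagagugu
hsa-miR-518e-5p, hsa-miR-519a-5p, hsa-miR-519b-5p, hsa-miR-519c-5p, hsa-miR-522-5p and hsa-miR-523-5p: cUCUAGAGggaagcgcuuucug
The seed AAGUGCU, carried by 5 sequences of the miR-520 group, is also that of miR-302a-3p to miR-302d-3p, of miR-302e, and of miR-372-3p and miR-373-3p, which are known from pluripotent cells. The seed AAAGUGC of miR-519d-3p and miR-526b-3p is shared with miR-17-5p, miR-20a-5p, miR-20b-5p, miR-93-5p, miR-106a-5p and miR-106b-5p, microRNAs known for promoting cell cycle entry. The letters AAGUGC occurred within the first 9 bases of 15 of the 52 cluster sequences (28.8%), against 16 of the 2299 other distinct mature sequences of the table (0.696%). These letters are part of the seeds AAGUGCU and AAAGUGC named above and of the seed AAGUGCA of 3 miR-519 sequences. In the other cluster sequences that hold them, such as miR-512-3p and miR-520g-3p, they begin before the seed or run past it. The contrast therefore overlaps with the shared seeds without being limited to them, and is no separate test. In all, 25 of the 52 sequences lay within 2 differences (substitutions, insertions or deletions) of another one. miR-520b-3p and miR-520c-3p, for example, are 1 difference apart. Signal on a probe for one such member may include its close relatives.

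The deposited table names probes only by accession, and the sequence table used here holds 0 accessions, so individual values below cannot be tied to a microRNA name or seed. For the same reason, the cell type markers and the microRNAs that share a seed with the cluster could not be looked up, and the label Huh7 was not checked against liver microRNAs. The values were taken as linear intensities already processed by the authors, which was inferred from the values themselves. The sources used here do not give how background and scale were treated, and no probe could be called above or below background. Probes also differ in brightness through their own properties, so brightness does not rank the microRNAs. Of the 1212 probes, 1038 had a value on all 6 arrays and were tested. The number of probes measured ranged from 1099 (metformin replicate 2) to 1209 (metformin replicate 3), and the precision is limited by 3 arrays per group.

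The cluster probes had intensities in the low part of the table's range on every array, with and without metformin. The highest of the 268 measured member values was 41.3 and the lowest 5.80, in a table whose values run from 4.70 to 19416. Most other probes also lay under 41.3, as their 75th percentile was between 31.75 and 35.0 on every array. The median member intensity was 21.35, 19 and 21.5 on metformin replicates 1, 2 and 3, and 18.25, 21.55 and 18.1 on control replicates 1, 2 and 3. The median of all other probes was 23.5, 23.0 and 24.3 on the same metformin arrays and 23.2, 23.8 and 23.9 on the control arrays. The member median therefore lay below the median of the other probes on all 6 arrays, although single members lay above it. The members made up 3.88% of the probes and between 0.508% and 0.838% of the summed intensity of an array. The highest single value of an array was between 12650 and 19416, and such bright probes weigh on this sum. Probes near the median therefore also fall below their share of the probes, so this contrast is not particular to the cluster.

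**Figure D1:**
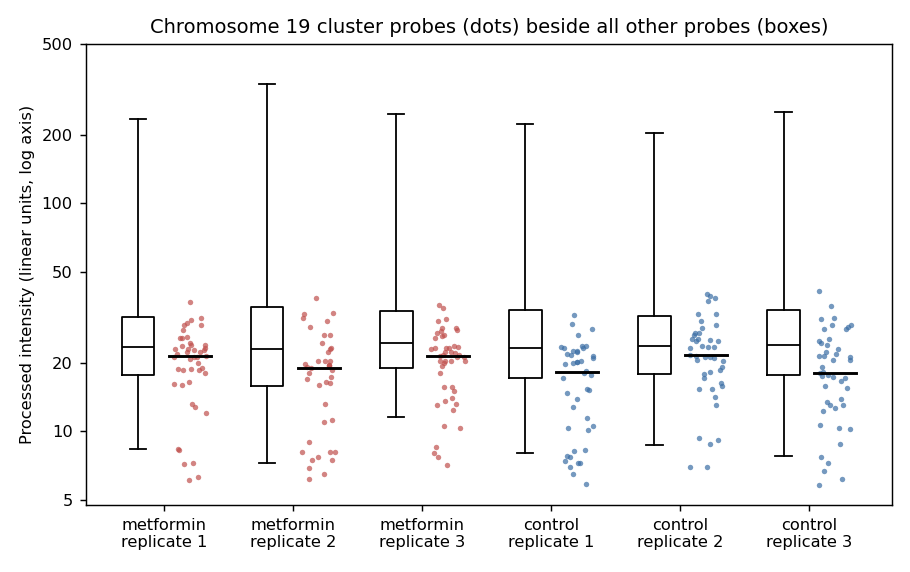
Processed intensity (linear units on a log axis) on each array, metformin arrays at left and control arrays at right. Boxes show all other probes (quartiles and median, whiskers at the 5th and 95th percentiles), dots the cluster probes and thick bars their medians, which lie between 18.1 and 21.55. No cluster probe exceeds 41.3. The upper whiskers of all 6 boxes lie far above that, while their upper quartiles lie below it.

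A total of 35 cluster probes had a value on all 6 arrays. Their geometric mean intensities ran from 8.84 to 32.1, with a median of 18.4, against 22.8 for the other probes tested. The median member stood at the 27.6 percentile of the 1038 probes by brightness. Of the members, 15 were among the 260 dimmest probes tested (means under 18.1), 14 among the next 259, 6 among the 259 after these and 0 among the 260 brightest (means of 32.5 or higher).

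The brightest member was MIMAT0002857. It measured 22.8, 31.3 and 28.5 with metformin, against 32.5, 40 and 41.3 in control, and stood at the 74.6 percentile of all probes tested, just below the 260 brightest. All 3 metformin values lay under all 3 control values. MIMAT0002862, a probe that also carries the accession MIMAT0005457, measured 22.9, 26.4 and 30.6 with metformin, against 29.7, 25 and 28.8 in control. MIMAT0002844 measured 27.8, 16.3 and 35.8 with metformin and 23.1, 37.3 and 23.9 in control. Both sets of values overlap between the groups, and only MIMAT0002862 was steady, with its highest value 1.34 times its lowest. MIMAT0002855 measured 21.2, 38.4 and 20.4 with metformin and 26.4, 19.2 and 28.0 in control, so that a single metformin array was high. MIMAT0002836 measured 22.2, 23.3 and 31.1 with metformin and 23.8, 30.5 and 16.7 in control. MIMAT0002864 measured 19, 22.3 and 26.1 with metformin and 22.5, 23.5 and 24.8 in control, all within a factor of 1.37. These 6 probes were the only tested members among the 519 brighter probes of the 1038.

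At the other end, MIMAT0002846 was the dimmest of all 1038 probes tested. It measured 12.1, 6.2 and 8.0 with metformin and 8.3, 13.1 and 7.3 in control, a geometric mean of 8.84. MIMAT0002851 measured 8.30, 17.0 and 10.6 with metformin and 12.8, 9.40 and 10.3 in control. MIMAT0002842 measured 23.6, 6.5 and 7.7 with metformin and 15.2, 26.5 and 7.70 in control. The groups overlap for all 3 probes. Several of these values lie close to the lowest value of any probe on their array, which was 5.8, 6.2 and 4.7 on metformin replicates 1, 2 and 3 and 5.87, 5.70 and 5.50 on control replicates 1, 2 and 3.

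Low and empty cells were more frequent among cluster probes than in the rest of the table. Of the 268 measured member values, 41 (15.3%) were under 10, against 8.24% of the values of other probes. The number under 10 was 6, 10 and 4 on metformin replicates 1, 2 and 3, and 10, 5 and 6 on control replicates 1, 2 and 3. This gave 20 low values in the metformin group and 21 in control. Empty cells made up 14 of the 282 member cells (4.96%), against 3.0% for other probes, with 7 in each group. Metformin replicate 2, which had the most empty cells among other probes too (107), held 6 of the 7 in its group. Only 12 of the 47 members (25.5%) were measured on all arrays with no value under 10, against 62.4% of the other probes. The other probes here were of every brightness, and shares among probes as dim as the members are not given. The part that these cells have in the differences below was not tested apart from the alternative settings given at the end.

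**Figure D2:**
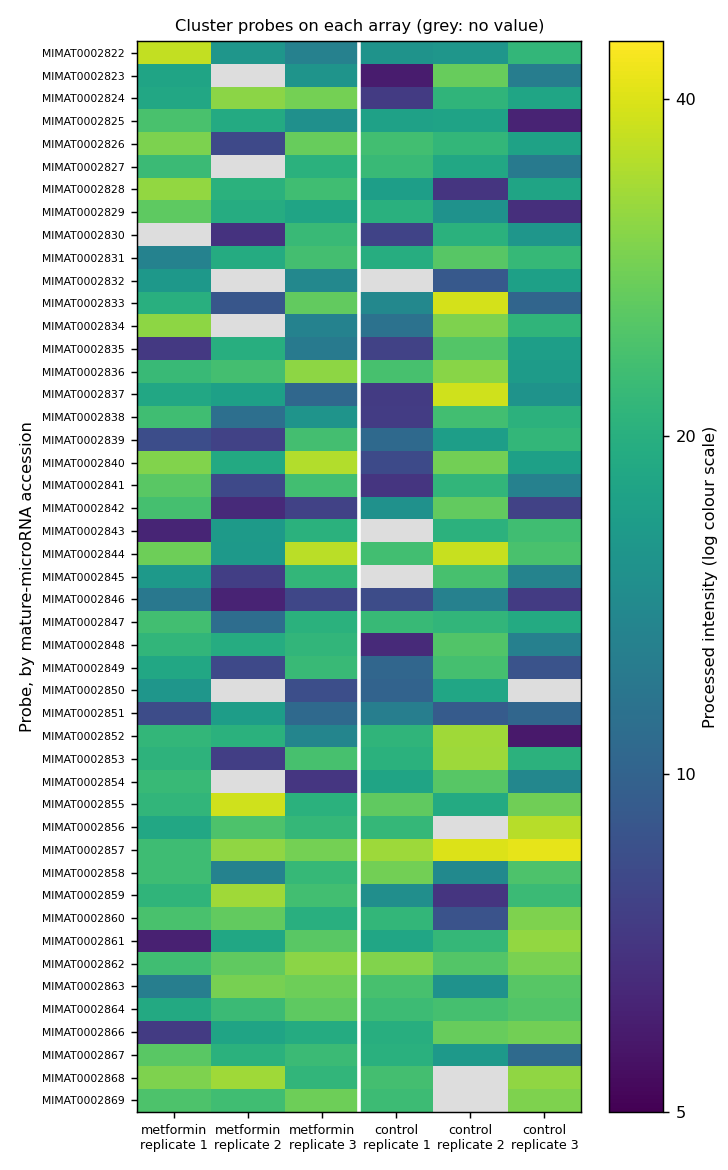
Intensity of each of the 47 cluster probes (rows, by accession) on the 6 arrays (columns, metformin replicates at left and control replicates at right), on a log colour scale from 5 to 45. Grey cells hold no value (14 cells). Dark cells, the values near or under 10, are scattered over all 6 arrays.

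The same probe often gave a high value on one array and a low one on another. For 29 of the 35 tested members (82.9%) the highest value was more than 2 times the lowest, against 47.9% of the other probes. This was taken over all arrays of both groups together, and the other probes were not matched to the members in brightness. The widest was MIMAT0002852, with 21.5, 20.3 and 13.6 with metformin and 21.0, 32.8 and 5.80 in control, a factor of 5.66. MIMAT0002837 spanned a factor of 5.26, with 18.6, 17.4 and 10.4 with metformin and 7.30, 38.4 and 15.5 in control. For both probes the lowest and the highest value were both on control arrays. The median SD within a group, on the log2 scale, was 0.64 for members and 0.37 for the other probes. It was 0.64 over the 260 dimmest of all probes tested, 0.44 over the next 259 and 0.30 over the 259 after these. The members were spread over these 3 sets, with 15, 14 and 6 in each.

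The order of the members by brightness was only weakly repeated between arrays. Pearson's r of log2 intensity across the 35 members ranged from -0.16 to 0.53 over the 15 pairs of arrays, with a median of 0.18. The median was 0.11 for the 6 pairs of arrays of the same group and 0.18 for the 9 pairs of different groups. Across the 739 other probes with means in the members' range the median was 0.26. Across the 264 brighter probes it was 0.98. A narrow range of levels lowers r by itself, which is why probes of the same range are set beside the members. These correlations are across probes of the same arrays, and probes are not independent replicates.

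**Figure D3:**
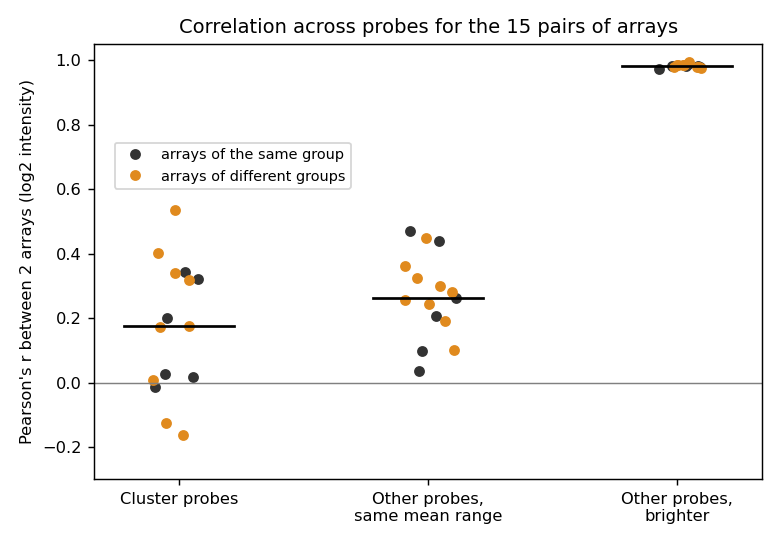
Pearson's r of log2 intensity between 2 arrays, 1 point for each of the 15 pairs, across the 35 cluster probes, the 739 other probes with means in the same range and the 264 brighter probes. Bars mark medians of 0.18, 0.26 and 0.98, and point colours separate pairs of arrays within a group from pairs across groups.

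None of the cluster probes was called higher or lower with metformin. The comparison used limma on log2 intensities, fitted on all 1038 probes, with Benjamini-Hochberg adjustment over all of them and a threshold of 0.05. Of the 35 members tested, 0 were higher and 0 were lower with metformin, and 0% of all probes passed in either direction. The lowest adjusted p of a member by limma was 0.991. With an unadjusted p under 0.05, 0 members were higher, against 1.64% of all probes, and 0 were lower, against 1.06% of all probes, or 2.7% in both directions. The group means were higher with metformin for 18 members and lower for 17, with a median log2 difference (metformin minus control) of 0.04, against 0.03 over all probes tested. The differences ran from -0.86 to 0.93, inside the range over all probes of -1.59 to 1.15.

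The arrays could not exclude moderate changes for most members. The 95% interval of the difference, which is not adjusted for the number of probes, lay wholly inside 2-fold, up or down, for 11 of 35 members (31.4%), against 54.9% of all probes tested. It excluded a 4-fold change for all 35, and for 98.8% of all probes tested. The median half-width of the members' intervals was 0.996 on the log2 scale, or 1.99-fold, against 0.70 (1.63-fold) over all probes. These shares and widths were not matched for brightness, and the SD was larger over dimmer probes, as given above. The tightest was MIMAT0002864, with a log2 difference of -0.08 (95% interval -0.61 to 0.44). MIMAT0002862 was nearly as tight at -0.07 (-0.60 to 0.46). The other 9 members whose interval excluded a 2-fold change were MIMAT0002831, MIMAT0002836, MIMAT0002844, MIMAT0002846, MIMAT0002847, MIMAT0002851, MIMAT0002855, MIMAT0002858 and MIMAT0002863. Because background correction is not known, these intervals bound the change in intensity and need not bound that in microRNA abundance.

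**Figure D4:**
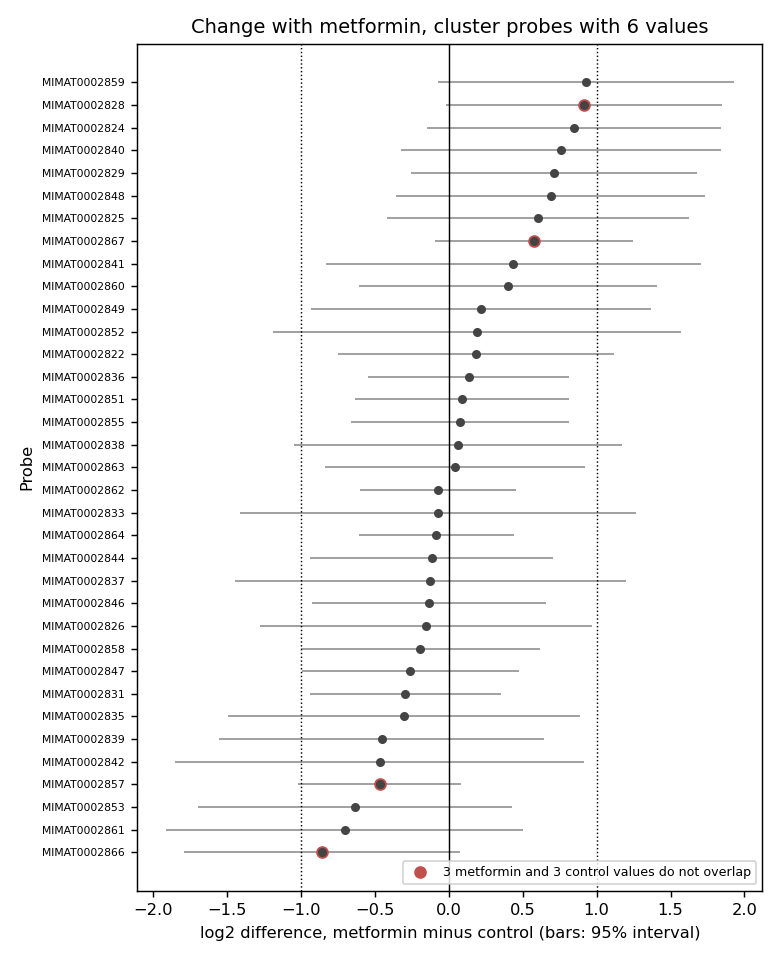
Log2 difference of metformin minus control for the 35 cluster probes with 6 values, ordered by size, with 95% intervals from limma. Dotted lines mark 2-fold changes, all intervals reach across 0, and the 4 probes whose metformin and control values do not overlap are in red.

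Metformin and control values did not overlap for 4 of the 35 members (11.4%), against 7.61% of all probes tested. Above were 2 members (5.71%, against 4.43% of all probes) and below were 2 members (5.71%, against 3.18%).

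Both probes that lay above had a single low control value or a small gap between the groups. MIMAT0002828 measured 31.4, 20.3 and 22.9 with metformin, against 17.2, 7.0 and 18.0 in control. Its means were 24.9 ± 5.81 with metformin and 14.1 ± 6.13 in control (SD, n = 3 each), a log2 difference of 0.92 (SE 0.40, limma adjusted p = 0.991). Control replicate 2 was far below the other arrays, and without it the difference was 0.47. MIMAT0002867 measured 25.6, 20.3 and 22.3 with metformin, against 20.1, 16.3 and 10.7 in control. The nearest values of the groups, 20.3 and 20.1, almost touched, and the log2 difference was 0.57 (SE 0.29, limma adjusted p = 0.991). Without control replicate 3, its lowest value, the difference was 0.32.

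The other members with the smallest p among those with higher means were MIMAT0002859 and MIMAT0002824, and their groups overlap. MIMAT0002859 measured 21.1, 32.9 and 23.1 with metformin, against 14.8, 7.0 and 22.4 in control. Its log2 difference of 0.93 (SE 0.43) was the largest of any member, and it was 0.47 without control replicate 2. MIMAT0002824 measured 18.7, 30.6 and 28.4 with metformin, against 7.30, 21.0 and 18.2 in control. Its difference of 0.85 (SE 0.43) was 0.37 without control replicate 1. In each of these 2 probes, 1 control value at or near 7 lay below all others of the probe.

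Among members with lower means, MIMAT0002857 and MIMAT0002866 were the 2 whose groups did not overlap. MIMAT0002857, the brightest member, averaged 27.5 ± 4.33 with metformin and 37.9 ± 4.75 in control (SD, n = 3 each). The log2 difference of -0.47 (SE 0.24) had a 95% interval of -1.02 to 0.09 and a limma adjusted p of 0.991. It had no value under 10, and leaving out any 1 array gave a difference between -0.57 and -0.34. MIMAT0002866 measured 7.30, 18.1 and 19.4 with metformin, against 19.9, 27.1 and 28.2 in control. Its difference of -0.86 (SE 0.40) was the lowest of any member, and without metformin replicate 1 it was -0.40.

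MIMAT0002853 and MIMAT0002861 came next, with overlapping groups. MIMAT0002853 measured 20.7, 7.50 and 23.7 with metformin, against 20.4, 32.7 and 20.6 in control, and 4 of its 6 values lay between 20.4 and 23.7. Its difference of -0.63 (SE 0.46) was -0.11 without metformin replicate 2. MIMAT0002861 measured 6.10, 18.5 and 25.6 with metformin, against 18.4, 21.6 and 31.4 in control, and its difference of -0.70 (SE 0.52) was -0.09 without metformin replicate 1.

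The other 19 tested members had log2 differences from -0.45 to 0.76, with 11 higher and 8 lower, and the lowest unadjusted p among them by limma was 0.126. The largest of these was MIMAT0002840, with 29.8, 19 and 34.9 with metformin, against 8.20, 28.3 and 17.5 in control. MIMAT0002829 measured 26.0, 19.5 and 18.0 with metformin, against 20.2, 15.3 and 6.70 in control. MIMAT0002848 was steady with metformin at 21.2, 19.5 and 21.3, and scattered in control at 6.5, 24.8 and 13. The groups overlap for all 3 probes, and each had 1 control value under 10. MIMAT0002825 (0.60), MIMAT0002841 (0.44), MIMAT0002860 (0.40), MIMAT0002849 (0.22) and MIMAT0002822 (0.18) also had positive log2 differences, as did MIMAT0002838 (0.06), MIMAT0002863 (0.04) and MIMAT0002852 (0.19). Negative log2 differences were found for MIMAT0002839 (-0.45), MIMAT0002835 (-0.30), MIMAT0002831 (-0.29), MIMAT0002847 (-0.26), MIMAT0002858 (-0.19), MIMAT0002826 (-0.15), MIMAT0002837 (-0.12) and MIMAT0002833 (-0.07). None of these passed the threshold.

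A further 12 members lacked a value on 1 array (10 probes) or on 2 arrays (2 probes) and were not part of this test. They were fitted with all 1200 probes that had at least 2 values in each group, and 0 of all 47 members passed the threshold there by limma, adjusted or not. MIMAT0002843 came closest. It measured 6.30, 16.5 and 20.4 with metformin, against 20.5 and 23.0 on control replicates 2 and 3, a log2 difference of -0.76 (SE 0.52, limma adjusted p = 0.990). MIMAT0002823 had the highest difference of the 12, 0.40 (SE 0.61), with 18.0 and 15.6 on metformin replicates 1 and 3 and 5.90, 27.1 and 12.7 in control. Its control values alone spanned a factor of 4.59. MIMAT0002868 and MIMAT0002869 were the brightest of the 12. MIMAT0002868 measured 29.3, 32.8 and 21.3 with metformin, against 23.4 and 31.2 on control replicates 1 and 3. MIMAT0002869 measured 24.4, 22.9 and 27.8 with metformin, against 22.6 and 29.3 on the same control arrays. Neither differed between the groups by more than its spread, with log2 differences of 0.02 and -0.04. The other 8, MIMAT0002827, MIMAT0002830, MIMAT0002832, MIMAT0002834, MIMAT0002845, MIMAT0002850, MIMAT0002854 and MIMAT0002856, had differences from -0.57 to 0.31. Over all 47 members 23 differences were positive and 24 negative, with a median of -0.04, against 0.02 over the 1200 probes.

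Of the 6 probes in the whole table that carry several accessions, 4 belong to the cluster. The probe headed by MIMAT0002831 carries 6 accessions. The sequence table likewise holds a single mature sequence under 6 names, the last one printed above, but whether that probe reads this sequence is not stated in the files. It measured 13.2, 19.4 and 23.3 with metformin, against 19.7, 25.5 and 21.8 in control, a geometric mean of 20.1 at the 36.8 percentile of the tested probes. Its groups overlap. The probe headed by MIMAT0002845 carries 3 accessions and measured 16.4, 7.50 and 21.5 with metformin, against 23.8 and 13.4 on control replicates 2 and 3. The probe headed by MIMAT0002860 carries 2 and measured 24, 26.5 and 20 with metformin, against 21.5, 8.80 and 29.3 in control. The remaining such probe, MIMAT0002862, is described above. On control replicate 1, MIMAT0002831, MIMAT0002860 and MIMAT0002862 have values of 19.6934, 21.5025 and 29.7036, with more decimals than on their other arrays. MIMAT0002845 has no value on that array. The sources used here do not give the reason, so these control replicate 1 values may have been derived differently.

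Taken over the arrays, the level of the cluster did not separate the groups. The median member intensity averaged 20.6 ± 1.40 over the metformin arrays and 19.3 ± 1.95 over the control arrays (SD, n = 3 each). On each array the median percentile of the members among the probes measured was 40.9, 35.2 and 37.4 on metformin replicates 1, 2 and 3, and 29.2, 40.7 and 27.4 on control replicates 1, 2 and 3. Control replicate 2 lay above 2 of the metformin arrays, so the groups overlap. A shift of all microRNAs together would be hidden if the unknown scaling gave every array the same level.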

How the data were processed

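Processed 1-colour intensity values of 6 Huh7 samples were taken from the table the authors deposited. That its values are linear and already processed was inferred from the values themselves, while the sources used here do not give the scanner, the treatment of background and scale, or why some cells are empty. Samples were grouped by their titles, and 0 columns were left out. Members were chosen by accession. They, the lists and the tests were chosen with earlier results of these data known. Values were converted to log2 with no pseudocount, and 174 of 1212 probes with an empty cell were left out of the test. Metformin and control were compared with limma 3.58.1 in R 4.3.3 (lmFit, eBayes, two-sided), with no covariate, and p-values adjusted by Benjamini-Hochberg were called at 0.05. The procedure was tested on simulated data with normal noise and no empty cells. That test therefore does not cover the single low values and empty cells seen among the cluster probes. Values on all arrays were given for the 6 brightest and 3 dimmest members, the 4 smallest p in each direction, and members whose groups do not overlap, a rule that assumed named probes. Other members were shown after their values were seen. Sequences and coordinates are from RefSeq (GRCh38.p14). The planned grouping of values by seed, and the marker lists, need a pairing of accessions with names and were not run. Alternatives were other scalings, filters, a pseudocount of 1, other variance settings, a replicate block, members with 1 accession and leaving out each array. Raising values under 10 to 10 was chosen after seeing the data.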

Additional observations from a re-analysis of the deposited data

How the results depend on the processing

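No member passed the threshold by limma in any of the 17 alternative settings, and the 16 members of the naming rule had adjusted p-values of 0.883 or higher in all 230 refits that included them. Among the 519 brighter probes, 6 members were left to test. The SD of the members' median between single arrays of a group was 0.13, which is not the spread of a difference between groups. The median log2 difference of 0.04 stayed below this in size in every setting that gave one, but its sign was not stable. It was -0.0086 after quantile normalization, -0.045 with at least 2 values in each group, -0.076 among the 519 brighter probes and -0.038 with values under 10 raised to 10, and leaving out 1 array gave values from -0.064 to 0.11. The median brightness percentile of 27.6 was 33.4 with at least 2 values in each group, where other probes and members enter, and leaving out 1 array gave 24.0 to 30.6. The count of members at an unadjusted p under 0.05, 0 as reported, was 3 with values under 10 raised to 10, 1 after quantile normalization, after centring on the median or on the 75th percentile, with log2(value + 1) and among the 519 brighter probes. Leaving out 1 array gave counts between 0 and 3: it was 3 without control replicate 1 or control replicate 2 and 2 without control replicate 3 or metformin replicate 3. It was 0 with trend and robust settings, in the unmoderated model and for members with 1 accession only. After quantile normalization 41 of all 1038 probes tested reached this level, beside 1 of the 35 members. In the unmoderated model 35 of the 1038 probes did, beside 0 members. The count over all probes is not given here for the other settings, so their member counts cannot be set beside a share.

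The replicate numbers were taken as names only, because no label makes them pairs and deviations from the group means correlated with r of 0.01, -0.27 and -0.02 for numbers 1, 2 and 3. Over all probes tested, none of the 6 arrays correlated best with its own number. Over the members alone, r was 0.11, -0.30 and 0.19 for the same numbers, and 2 arrays (metformin replicate 3 and control replicate 1) correlated best with their own. With the replicate block 0 of the 35 members passed, and the count at an unadjusted p under 0.05 was 3, in place of 0. Over all 1038 probes tested the block gave 0 and 24.

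Direction turned in 13 of the 230 refits, all for members with differences near 0. MIMAT0002851 (0.09) was -0.011 after quantile normalization. When 1 array was left out the differences ranged from -0.20 to 0.32 for MIMAT0002851, from -0.36 to 0.20 for MIMAT0002844, from -0.39 to 0.12 for MIMAT0002846, from -0.22 to 0.24 for MIMAT0002855, from -0.094 to 0.34 for MIMAT0002836, from -0.17 to 0.034 for MIMAT0002862 and from -0.20 to 0.033 for MIMAT0002864.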

Other observations

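Low and empty values of the cluster were unevenly placed along the accession range on 2 arrays. The range was divided at its middle after the values were seen, so no test was made. Among the 24 probes from MIMAT0002822 to MIMAT0002845, metformin replicate 2 had 7 values under 10 and 4 empty cells, and control replicate 1 had 8 and 3. Among the 23 probes from MIMAT0002846 to MIMAT0002869, metformin replicate 2 had 3 and 2, and control replicate 1 had 2 and 0. On the other 4 arrays the earlier set held between 1 and 3 values under 10 and the later set 3. Empty cells ran the other way on control replicates 2 and 3, with 0 in the earlier set on both and 3 and 1 in the later set, while metformin replicate 1 had 1 in the earlier set and 0 in the later, and metformin replicate 3 had 0 in both. Median intensities of the earlier set were 22.3, 16.4 and 20.95 on metformin replicates 1, 2 and 3, and 13.9, 22.3 and 17.25 on control replicates 1, 2 and 3. Those of the later set were 21.2, 20.3 and 21.6 on the metformin arrays and 21.0, 21.4 and 24.55 on the control arrays. The members tested in the earlier set had a median within-group SD of 0.71 on the log2 scale (17 probes), against 0.51 in the later set (18 probes). The median log2 difference of metformin minus control was 0.06 in the earlier set and -0.01 in the later. The positions of the probes on the array were not used here.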
